A study of Sus scrofa with 6 samples.

Results

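Secreted peptide signals let epithelial cells act on themselves and on their neighbours, and 5 genes for such signals, SST, PTHLH, ADM, NUCB2 and NRN1, are described here across clones of pig (Sus scrofa) eye-surface keratinocytes. Their members are the rows of the deposited expression table whose only gene symbol in the array annotation is one of these 5, which gave 6 probe sets of 23999 and 5 genes of 6765. NRN1 alone had a second probe set, and the brighter of its pair on average over the arrays stands for the gene. The genes were picked with their values in these clones known, from the same comparison, so their differences between tissues and their ranges are given as descriptions without a test.

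Each of these genes encodes a protein that enters the secretory pathway. Somatostatin (SST) and parathyroid hormone-related protein (PTHLH) are made as prohormones and cut into short peptides, and adrenomedullin (ADM) is also amidated at its end. Somatostatin is best known from gut and pancreatic endocrine cells and from neurons, where it holds back the secretion of other hormones through receptors that lower cyclic AMP. PTHLH is a product of cultured keratinocytes that acts through the receptor it shares with parathyroid hormone. Adrenomedullin widens blood vessels through a receptor built from CALCRL and a RAMP protein, and its gene is induced by low oxygen. NUCB2 encodes nucleobindin 2, a calcium-binding protein that is also the precursor of nesfatin-1. NRN1 encodes neuritin, a small protein held at the cell surface by a lipid anchor and known for promoting the outgrowth of nerve cell processes.

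The study compared 3 clones from the central cornea, 6 mm from the limbus, with 3 clones from the conjunctiva, and the labels name no treatment. The labels name 2 white domestic pigs, AP1 and AP6, and give neither their age nor which clone came from which. For both tissues the culture used a feeder layer of irradiated mouse fibroblasts, the line 3T3-J2. Each clone was founded by a single cell picked from a mass culture, and the labels do not say whether feeder cells were taken out before RNA was prepared. Total RNA of each clone was labelled with biotin and read on 1 Affymetrix porcine array. In the run files of the arrays the project is called an irradiation time course, of which the labels say nothing. The values are log2 intensities made by the authors with RMA, which gives no detection call. Array medians lay between 4.4 and 4.478, so values near that level may hold little signal. With 1 array for each clone, a clone has no error of its own, and p-values measure only the spread between these 6 samples. In such bulk samples, fewer cells expressing a gene and less of its RNA in each cell cannot be told apart.

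SST was the gene with the widest range of all 6765 measured. In the corneal clones 1, 2 and 3 its log2 value was 10.05, 13.05 and 4.91, and in the conjunctival clones 1, 2 and 3 it was 9.62, 5.95 and 9.18. The cornea thus held both the highest clone and the lowest, 8.13 apart on the log2 scale, a 280.4-fold difference in measured intensity, while the median gene spanned 0.58 (1.49-fold). The lowest value was close to the array medians, so the size of this fold is uncertain. The conjunctival clones spanned 3.67 (12.8-fold), and all of them lay inside the corneal range. Without cornea 2 the range over the remaining clones was 5.14.

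The 6 values of SST were unevenly spaced. Cornea 2 stood alone at the top, 2.99 above cornea 1. Cornea 1, conjunctiva 1 and conjunctiva 3 followed within steps of 0.43 and 0.44, which are common between clones: over all genes and all 15 pairs of clones, 23.1% and 21.8% of differences were at least as large. Conjunctiva 2 came 3.23 below these and cornea 3 another 1.03 lower, a step that 3.66% of differences reached. Differences at least as large as 2.99 and 3.23 made up 0.235% and 0.176% of all differences between clones, which counts clones and not repeat arrays. The steps are between clones next to each other in rank and the differences between all pairs, so the measures are unlike. SST was picked with these values known, so the shares are a description and not a test.

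The level of SST did not follow the tissue. The corneal mean was 9.34 ± 4.11 and the conjunctival mean 8.25 ± 2.01 (log2, SD, n = 3), a difference of -1.09 with an SE of 2.04 from the limma fit. Between clones of the same number, conjunctiva minus cornea was -0.43, -7.10 and 4.26 for numbers 1, 2 and 3. The sign turned without cornea 2 (0.77) and without conjunctiva 2 (0.06), and the difference was -3.3 without cornea 3. The arrays were washed on 2 fluidics stations, and within station 1, with cornea 1 as the lone corneal array, the difference was -2.49, against 0.64 within station 2, which held cornea 2, cornea 3 and conjunctiva 1.

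Other measures moved with some of these clones. Genes of cornification, the building of the outer epithelial layer, were on average 0.53, 1.15 and -0.54 from their mean over all clones in corneal clones 1, 2 and 3, and 0.41, -1.05 and -0.51 in the conjunctival ones. KRT1, a keratin of differentiating epidermal cells and a gene of that list, was at 8.76, 11.05 and 6.88 in cornea and at 9.02, 4.57 and 6.34 in conjunctiva. Cornea 2 was thus highest for SST, for the list and for KRT1, but the lowest clone was cornea 3 for SST and conjunctiva 2 for the others. The cell cycle genes were lowest in cornea 2, at -1.08 as a list mean, where the other clones lay between -0.01 and 0.43. The 3' minus 5' signal of the actin control, a measure of RNA quality, was 0.46, 1.07 and 0.79 in cornea and 0.55, 0.93 and 1.11 in conjunctiva, with the clones of the highest and lowest SST value at 1.07 and 0.79. For the GAPDH control it was 0.25, 0.52 and 0.60 in cornea and 0.58, 0.97 and 0.55 in conjunctiva, highest in conjunctiva 2, which was next to lowest for SST. The part of these measures in the SST values was not tested.

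PTHLH was high in every conjunctival clone and varied among the corneal ones. It was at 9.27, 8.52 and 6.21 in corneal clones 1, 2 and 3 and at 10.04, 10.32 and 9.87 in conjunctival clones 1, 2 and 3. All conjunctival values lay above all corneal ones, with a step of 0.60 from cornea 1 to conjunctiva 3. The 3 conjunctival clones lay within 0.45 of each other (1.37-fold), and the corneal clones within 3.06 (8.33-fold). Over all 6 clones the range was 4.11, or 17.3-fold, the 28th widest of all genes.

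For PTHLH the corneal mean was 8.0 ± 1.59 and the conjunctival mean 10.08 ± 0.23 (log2, SD, n = 3), a difference of 2.08 with an SE of 0.72, or 4.22-fold. Clones of the same number differed by 0.77, 1.80 and 3.66, in the same direction each time. Cornea 3 took a large part of this difference. Without it the tissues were 1.18 apart and the range fell to 1.8. Within fluidics station 1 the difference was 0.83, and within station 2, which held cornea 3, it was 2.67. Cornea 3 was the lowest clone for SST and for PTHLH alike, but the other clones took different orders for these genes, and conjunctiva 2, highest for PTHLH, was next to lowest for SST.

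**Figure D1:**
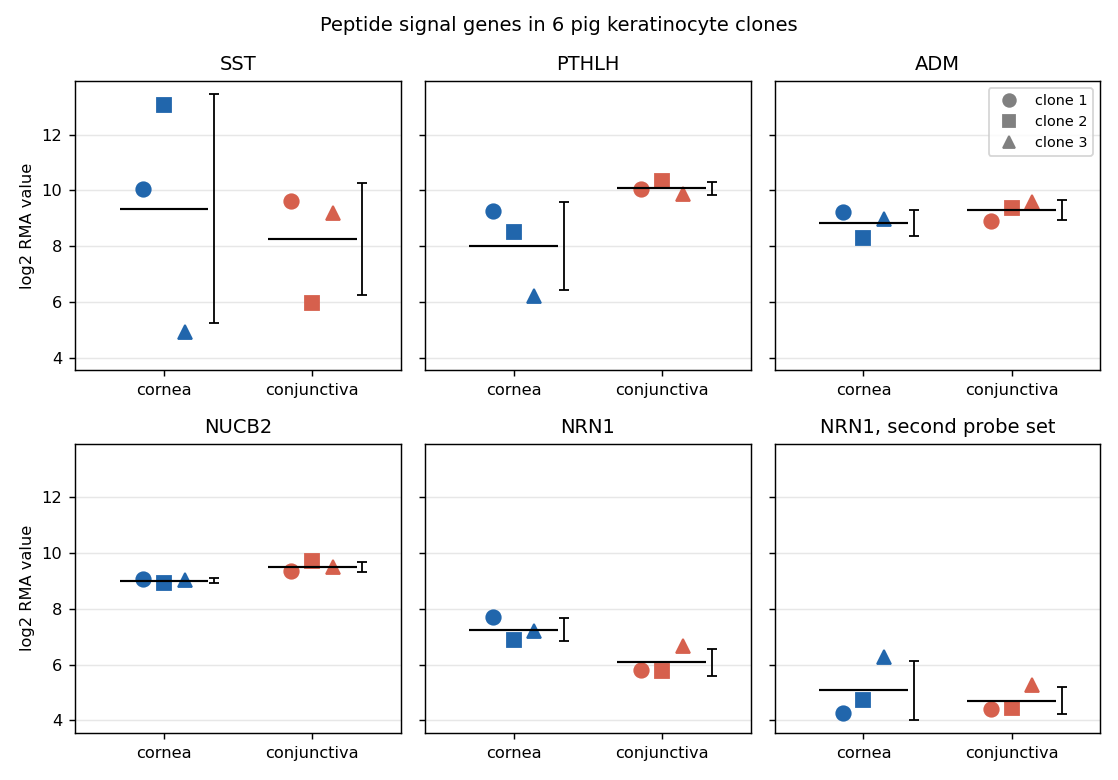
Log2 RMA value of each probe set of the 5 genes (vertical axis) in the 3 corneal (blue) and 3 conjunctival (red) clones, with marker shape giving the clone number, a line the tissue mean and the bar beside it 1 SD (n = 3). SST spreads from 4.91 to 13.05 within the cornea, PTHLH lies between 9.87 and 10.32 in conjunctiva, and the NRN1 probe sets differ in pattern.

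ADM spanned 1.29 on the log2 scale over the clones, a range that 9.06% of all genes reached. It was at 9.21, 8.30 and 8.97 in corneal clones 1, 2 and 3 and at 8.90, 9.38 and 9.59 in conjunctival clones 1, 2 and 3. The tissues overlapped, since cornea 1 and cornea 3 were above conjunctiva 1, and cornea 2 was the lowest clone. The means were 8.83 ± 0.47 and 9.29 ± 0.35 (log2, SD, n = 3), a difference of 0.46 with an SE of 0.28. Without cornea 2 it was 0.20 and the range over the clones went from 1.29 to 0.69. With the fluidics station as a block the difference was 0.27.

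NUCB2 showed the smallest range of the 5 genes and a small, even step between the tissues. It was at 9.08, 8.92 and 9.03 in corneal clones 1, 2 and 3 and at 9.34, 9.70 and 9.50 in conjunctival clones 1, 2 and 3. All conjunctival clones were higher, with a step of 0.25 between the nearest clones of the 2 tissues, a size reached by 44.0% of all differences between clones. That share is over all pairs of clones and the step is between the nearest ones, so the measures are unlike. The means were 9.01 ± 0.08 and 9.51 ± 0.18 (log2, SD, n = 3), which is a difference of 0.50 with an SE of 0.13, or 1.42-fold. Leaving out any one clone kept it between 0.41 and 0.59.

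NRN1 was lower in conjunctiva by its representative probe set. The values were 7.70, 6.87 and 7.19 in corneal clones 1, 2 and 3 and 5.82, 5.77 and 6.65 in conjunctival clones 1, 2 and 3, without overlap. The nearest clones of the 2 tissues, conjunctiva 3 and cornea 2, were 0.22 apart, a step that 50% of all differences between clones reached. Here too the share is over all pairs of clones and not over nearest ones. The means were 7.25 ± 0.42 and 6.08 ± 0.49 (log2, SD, n = 3), a difference of -1.17 with an SE of 0.30, or 2.25-fold. Clones of the same number differed by -1.88, -1.10 and -0.54.

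The second NRN1 probe set gave another picture. It was at 4.25, 4.72 and 6.27 in corneal clones 1, 2 and 3 and at 4.39, 4.45 and 5.25 in conjunctival clones 1, 2 and 3, so the tissues overlapped and 4 of its 6 values were below 5. Its highest values were in the clones numbered 3 of both tissues. The tissue difference was -0.38 with an SE of 0.53 against -1.17 for the representative probe set. The pattern of NRN1 therefore depends on which probe set is read.

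Of the 5 genes, 3 had tissues without overlap, and among all 6765 genes 6.71% had none. PTHLH and NUCB2 were higher in conjunctiva, as 3.55% of all genes were without overlap, and NRN1 was lower, as 3.16% were. By probe set 3 of 6 had no overlap, and 7.28% of all probe sets. A range of at least 2-fold over the clones was seen in 4 of the 5, all but NUCB2, and in 16.5% of all genes. The tissue means of 3 genes, SST, PTHLH and NRN1, were at least 2-fold apart, as were those of 0.887% of all genes. The genes were chosen from these values, so nothing is read from these counts. In the limma fit over the whole table, 0 of 23999 probe sets passed an adjusted p of 0.05 (0%), with a smallest adjusted p of 0.0695 and 648, or 2.7%, at an unadjusted p under 0.05. With limma's trend and robust options 2 passed, one for FOLR1, a folate receptor gene, and one without a gene name here. A block for the clone number gave 0, with 1204 under that unadjusted p.

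**Figure D2:**
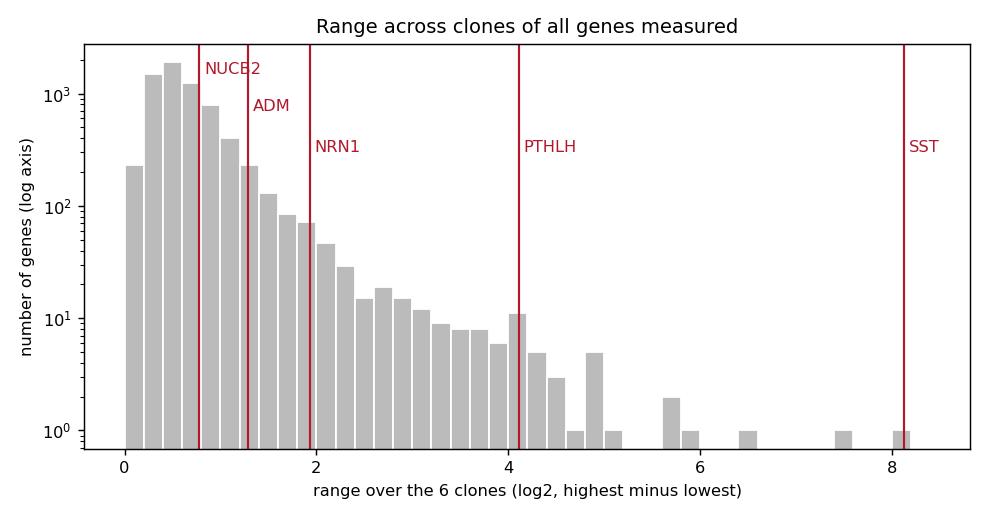
Number of genes (vertical log axis) by range over the 6 clones in log2 units (horizontal axis), for 6765 genes with 1 probe set each, with red lines at the 5 peptide signal genes. SST, at 8.13, is the widest of all and PTHLH lies at 4.11, while NUCB2, at 0.78, is near the median of 0.58.

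The sum of squares of each gene over the 6 clones was divided into a part between the tissues, a part between clone numbers and a remainder. The tissue took 82.3% for NUCB2, 71.0% for the representative NRN1 probe set and 55.5% for PTHLH. It took 31.8% for ADM and 4.06% for SST. The mean over all genes was 16.7% for the tissue and 51.4% for the clone number, where unrelated clones would give 20% and 40%. For SST, 21.2% lay between clone numbers and 74.7% was left over, in clones that followed neither label. The second NRN1 probe set was different again, with 7.57% between tissues and 80.6% between clone numbers.

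**Figure D3:**
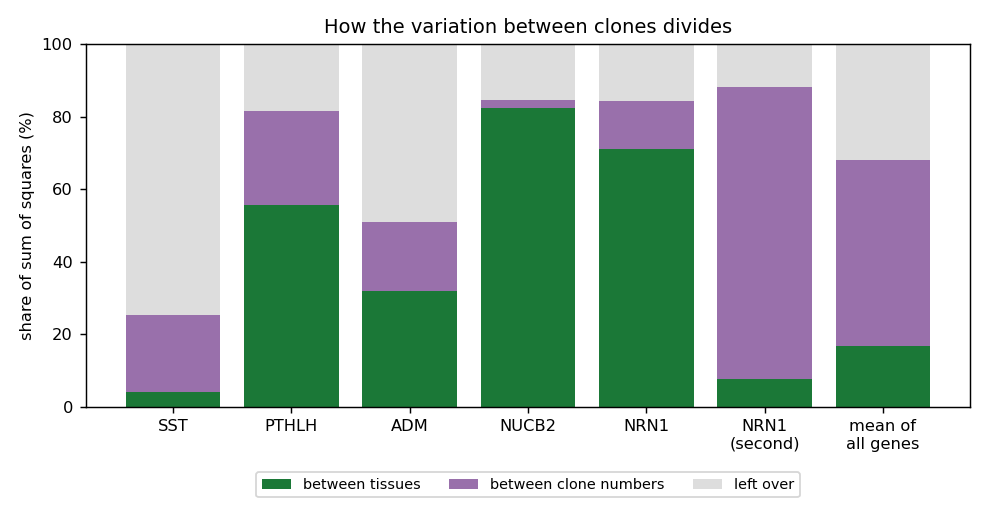
Share of the sum of squares over the 6 clones in percent (vertical axis) that lies between tissues (green), between clone numbers (purple) and in neither (grey), for each probe set and as the mean over 6765 genes. Tissue holds 82.3% for NUCB2 and 4.06% for SST, and the NRN1 probe sets hold 71.0% and 7.57%.

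The receptors that read these peptides were measured near the array medians. Of 14 listed receptor genes 9 were measured, with 0 of 9 passing by limma, 0 at an unadjusted p under 0.05 and 0 with a range of at least 2-fold. The median range was 0.42, and 5 of the 9 had a mean below the lowest array median. The somatostatin receptor genes SSTR1, SSTR3 and SSTR5 lay between 3.81 and 4.31, 4.60 and 5.02, and 5.0 and 5.48 over the 6 clones, and a second SSTR5 probe set had the opposite sign of tissue difference. PTH1R, the receptor of PTHLH, lay between 3.58 and 3.94. CALCRL, the core of the adrenomedullin receptor, lay between 3.06 and 3.31. The calcitonin receptor gene CALCR, with the widest range of the 9, lay between 3.35 and 3.90. Its partner genes RAMP1, RAMP2 and RAMP3 differed between tissues by -0.08 (SE 0.10), 0.10 (SE 0.13) and -0.09 (SE 0.14), each at a limma adjusted p of 0.9999. None of these 9 genes shared the range of SST or PTHLH, and a level this near the array medians cannot show whether the receptor was made.

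Of 10 listed relatives 5 were measured: PTH, ADM5, CALCB, IAPP and NUCB1. PTH, CALCB and IAPP, 3 of the 5, had a mean below the lowest array median, so their small ranges say little. None reached a 2-fold range, and 0 of 5 passed by limma or had an unadjusted p under 0.05. NUCB1, the closest relative of NUCB2, was at 8.09, 8.12 and 7.74 in corneal clones 1, 2 and 3 and at 8.14, 8.25 and 7.84 in conjunctival clones 1, 2 and 3. It differed between tissues by 0.09 (SE 0.16, limma adjusted p = 0.9999), against 0.50 for NUCB2, and this contrast between the genes was not tested.

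Other secreted peptides and hormones varied little. Of 48 listed genes 32 were measured, 10 higher and 22 lower in conjunctiva, with a median difference of -0.07 where that of all genes was 0.0141. By limma 0 of 32 passed, and 0 had an unadjusted p under 0.05. A range of at least 2-fold was seen in 2 of the 32, STC1 and RLN2, and 18 had a mean below the lowest array median. STC1, which encodes the secreted glycoprotein stanniocalcin 1, was at 6.94, 6.62 and 5.96 in corneal clones 1, 2 and 3 and at 7.51, 6.60 and 7.31 in conjunctival clones 1, 2 and 3. Its tissue difference was 0.63 (SE 0.32, limma adjusted p = 0.9999), and of its 2 other probe sets, 1 had the opposite sign. TRH, the gene of thyrotropin-releasing hormone, was lower in all conjunctival clones, at a level of 3.29 to 3.51 over all clones (limma adjusted p = 0.9999).

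Prohormone processing was represented by 15 of 23 listed genes, 5 higher and 10 lower in conjunctiva, with a median difference of -0.03. By limma 0 passed, and 0 had an unadjusted p under 0.05. A range of at least 2-fold was seen in 6 of the 15. The granule proteins CHGA and SCG3 and the chaperone SCG5 differed by -0.16 (SE 0.15), 0.15 (SE 0.11) and -0.18 (SE 0.20), each at a limma adjusted p of 0.9999. ECE1, the enzyme that activates endothelin, differed by -0.14 (SE 0.11), also at 0.9999. The convertase genes PCSK1 and PCSK2, which were looked at after their values were known, lay between 2.94 and 3.29 and between 5.18 and 5.44.

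**Figure D4:**
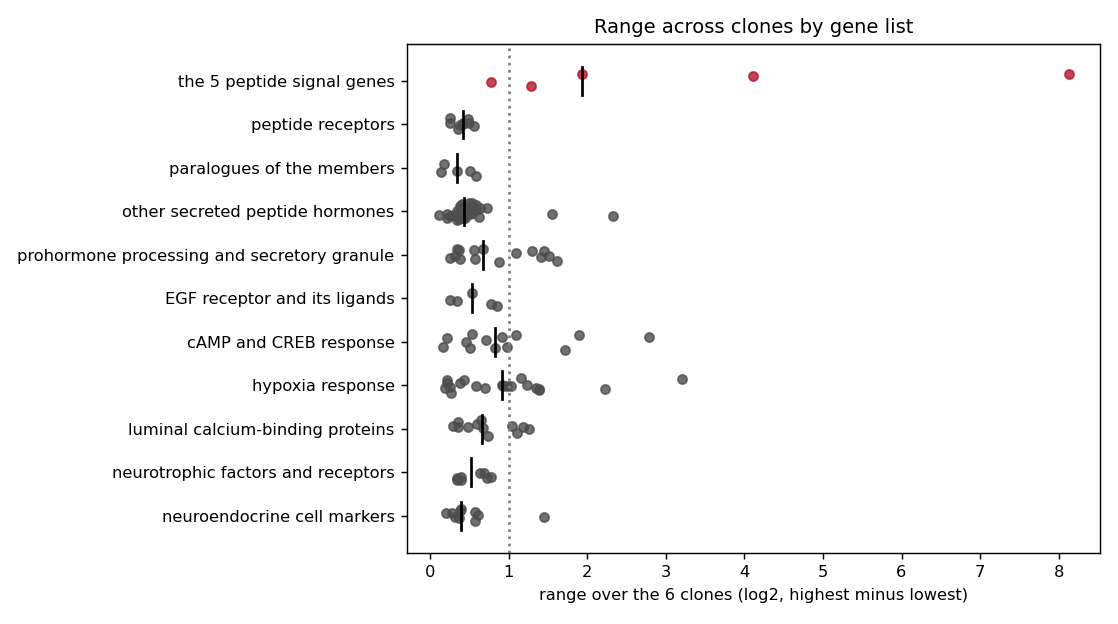
Range over the 6 clones in log2 units (horizontal axis) of each measured gene, by list (vertical axis), with the 5 peptide signal genes in red, a black bar at the median of each list and a dotted line at 2-fold. The 9 receptor genes and 5 relatives lie below 2-fold, and 2 of 32 other secreted peptides lie above it.

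Pathways known to act on these genes were looked at beside them. EGF receptor signalling induces PTHLH in keratinocytes, and of 11 listed genes of that pathway 5 were measured, 2 higher and 3 lower in conjunctiva. By limma 0 of 5 passed and 0 had an unadjusted p under 0.05. The ligand gene AREG was at 11.16, 11.50 and 11.58 in corneal clones 1, 2 and 3 and at 11.66, 11.16 and 11.70 in conjunctival clones 1, 2 and 3. Cornea 3 was the lowest clone for PTHLH, and cornea 1 and conjunctiva 2 were the lowest for AREG. The receptor gene EGFR was lowest in cornea 3, at 7.74, and at 7.85 to 8.51 in the other clones. TGFA, a ligand gene, was also lowest in cornea 3, at 5.93, and at 5.95 to 6.27 in the others. The ligand genes HBEGF and EGF were lowest in conjunctiva 3 and conjunctiva 1. The part of this pathway in the PTHLH values was not tested. The gene of EGF itself was at 2.74 to 3.00, under the array medians. HBEGF, another ligand gene, differed by -0.12 (SE 0.21) and TGFA by -0.03 (SE 0.13), each at a limma adjusted p of 0.9999.

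Cyclic AMP acts on the SST promoter through the factor CREB, and of 23 listed genes of that response 13 were measured. Of these 5 were higher and 8 lower in conjunctiva, 0 passed by limma, 1 had an unadjusted p under 0.05 and 4 had a range of at least 2-fold, EGR1, ATF3, FOS and DUSP1, which were named after their values had been seen. The gene with that p, PRKACB, which encodes a catalytic subunit of protein kinase A, was at 3.08, 3.12 and 3.14 in corneal clones 1, 2 and 3 and at 3.40, 3.32 and 3.91 in conjunctival clones 1, 2 and 3. It was higher in all conjunctival clones, by 0.43 (SE 0.17, limma adjusted p = 0.9999), at a level under the array medians. The mean of the list lay 0.30, -0.19 and 0.00 from its mean over all clones in corneal clones 1, 2 and 3 and -0.19, -0.17 and 0.25 in the conjunctival ones. Cornea 2 was the highest clone for SST and among the lowest for this list. The part of cyclic AMP in the SST values was not tested.

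The hypoxia response, to which ADM belongs, had 20 of 30 listed genes measured, 8 higher and 12 lower in conjunctiva, with a median difference of -0.05. By limma 0 passed and 0 had an unadjusted p under 0.05. A range of at least 2-fold was seen in 8 of the 20. ANGPTL4, which encodes a regulator of lipid uptake, was at 5.78, 5.23 and 5.74 in corneal clones 1, 2 and 3 and at 5.73, 6.15 and 6.15 in conjunctival clones 1, 2 and 3, a difference of 0.43 (SE 0.20, limma adjusted p = 0.9999). Cornea 2 was the lowest clone for ANGPTL4 and for ADM. The list mean was lowest in cornea 3, at -0.25, and highest in cornea 1, at 0.20. ADM was lowest in cornea 2 and highest in conjunctiva 3. The part of low oxygen in the ADM values was not tested. HIF1A, the gene of the oxygen-regulated factor, differed by -0.16 (SE 0.17, limma adjusted p = 0.9999), with a range of 0.58. Its other, dimmer probe sets differed by -0.09, -0.52 and -0.79, with ranges of 0.67, 1.68 and 2.55.

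Among calcium-binding proteins of the secretory pathway, the class of NUCB2, 12 of 15 listed genes were measured, 8 higher and 4 lower in conjunctiva, with a median difference of 0.09. By limma 0 passed and 0 had an unadjusted p under 0.05. STIM2, CANX, CALU and SDF4 differed by 0.18 (SE 0.11), 0.18 (SE 0.12), 0.18 (SE 0.17) and 0.34 (SE 0.25), each at a limma adjusted p of 0.9999, and all 4 overlapped between tissues, where NUCB2 did not. The other CALU probe sets had the opposite sign, at -0.16 and -0.02, and those of CANX lay between -0.22 and 0.34. Among neurotrophic factors and receptors, listed beside NRN1, 8 of 17 genes were measured, 2 higher and 6 lower, with 0 passing by limma and 0 at an unadjusted p under 0.05. BDNF, a neurotrophin gene, differed by -0.25 (SE 0.17, limma adjusted p = 0.9999).

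The keratinocyte label was checked on 8 measured markers of 22, which were not alike. By their representative probe sets, the desmosome gene DSP, PERP, SFN and the cadherin gene CDH1 lay between 10.58 and 13.50 in every clone, and EPCAM between 8.22 and 9.61. Second probe sets of DSP and CDH1 were dimmer and more variable, with means of 4.59 and 7.76 and ranges of 3.59 and 2.29. COL17A1, a collagen of hemidesmosomes, lay between 6.13 and 9.62. The cadherin gene CDH3 lay between 4.40 and 5.51, and the integrin gene ITGA6 between 3.39 and 3.90, under the array medians in every clone. KRT5, KRT14, TP63, the corneal markers KRT3, KRT12 and PAX6 and the conjunctival markers MUC5AC, KRT13 and KRT4 were not analysed here, since no probe set was named by them alone. Of the corneal markers 4 of 8 were measured and of the conjunctival ones 7 of 12, with 0 passing by limma and 0 at an unadjusted p under 0.05 in either list. The corneal list was lowest in cornea 3, at -0.76 from its mean over all clones, the clone lowest for SST and PTHLH. It was highest in a conjunctival clone, conjunctiva 2, at 0.67. CLU and ALDH1A1 were lowest in cornea 3, at 7.41 and 10.29, and TKT and GJA1 were not. The conjunctival list was at -0.56, 0.52 and -0.34 in corneal clones 1, 2 and 3 and at -0.35, 0.88 and -0.14 in the conjunctival ones, and both lists overlapped between the tissues. Of the 7 conjunctival markers 5 were higher and 2 lower in conjunctiva, with a median difference of 0.43. KRT8, a simple keratin of that list, was at 10.87, 10.94 and 10.40 in cornea and at 8.20, 10.80 and 9.14 in conjunctiva (difference -1.36, SE 0.61, limma adjusted p = 0.9999). MUC4 was at 2.93, 2.96 and 3.02 in cornea and at 3.44, 5.29 and 3.21 in conjunctiva, without overlap. It differed by 1.01 (SE 0.52), S100A9 by 1.74 (SE 1.05) and AQP5 by -0.69 (SE 0.44), each at a limma adjusted p of 0.9999. The part of these markers in the SST and PTHLH values was not tested. Neuroendocrine cells, a usual source of SST, had 10 of 14 markers measured, 7 of them with a mean below the lowest array median. Their summed intensity was 165 to 182 in cornea and 149 to 159 in conjunctiva, without overlap. It was highest in cornea 2, where SST was highest too, and in cornea 3, lowest for SST, it was 175. The list mean was instead highest in cornea 3, at 0.10 from its mean over all clones. It was 0.02 and 0.04 in corneal clones 1 and 2 and -0.10, -0.04 and -0.02 in the conjunctival ones. UCHL1, the marker with the widest range (1.45), weighed heavily in the differences of this sum. It was at 5.20, 5.79 and 4.92 in corneal clones 1, 2 and 3 and at 5.10, 5.12 and 4.34 in conjunctival clones 1, 2 and 3. RMA lists no gene at 0, and the part of such cells in the SST values was not tested.

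Markers of further cell types were measured as well. Summed intensities in cornea and conjunctiva were 3109 to 4879 and 4768 to 7533 for 12 of 15 fibroblast markers, 166 to 501 and 157 to 323 for 7 of 10 melanocyte markers, and 95.4 to 114 and 89.6 to 107 for 7 of 12 leukocyte markers. They were 269 to 359 and 344 to 448 for 9 of 9 endothelial markers, and 204 to 218 and 222 to 272 for 5 of 10 nerve and Schwann cell markers. The nerve sum and the neuroendocrine sum did not overlap between the tissues, and neither did PTHLH, NUCB2 and NRN1. The nerve list mean did overlap, at -0.08 to 0.08 in cornea and -0.07 to 0.08 in conjunctiva from its mean over all clones. MBP, by far the brightest nerve marker with a mean of 7.12, overlapped too, and its other probe sets differed in sign. The fibroblast sum was lowest in cornea 3 and highest in conjunctiva 2, as PTHLH was. In a sum the brightest markers weigh most. For melanocytes this was GPNMB, with a mean of 6.8 where the other markers had at most 5.16. For endothelium it was PECAM1, with a mean of 7.69 where the others had at most 5.09. Of the 9 endothelial markers 7 had a mean below the lowest array median. The fibroblast list mean was lowest in conjunctiva 1, at -0.28 from its mean over all clones. In cornea 3 it was 0.10, below only conjunctiva 2 at 0.35. The fibroblast markers went both ways in cornea 3. COL5A1 and PDGFRB were highest there, at 6.72 and 6.91, and VIM and DCN were lowest there, at 10.6 and 5.61. The range of PDGFRB was 0.43, and the other probe sets of COL5A1 were dimmer and differed in sign. The part of these cells in the values was not tested. Over all 20 lists, 215 of 355 genes were measured. By limma 0 of 215 passed, and 4, or 1.86%, had an unadjusted p under 0.05, where 3.12% of all genes did. These were PRKACB, PECAM1, CST6 and KRT10. A block for the clone number gave 0 passing and 11 with such a p, and limma's trend and robust options gave 0 and 3.

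The genes most like each of the 5 were taken by Pearson correlation over the 6 arrays, among genes with a range of at least 2-fold. With 6 arrays and 1118 or 1119 genes compared, high values arise easily, and the same clones enter each of them. The 3 nearest to SST were HSD17B4, an enzyme of peroxisomal fatty acid breakdown (r = 0.991), LYST, a regulator of lysosome traffic (r = 0.97), and HPSE, the gene of heparanase (r = 0.956). HSD17B4 was at 9.04, 9.54 and 8.50 in corneal clones 1, 2 and 3 and at 9.07, 8.53 and 8.96 in conjunctival clones 1, 2 and 3, highest in cornea 2 and lowest in cornea 3 and conjunctiva 2, like SST, over a range of 1.04. For SST 23 genes, or 2.06%, reached an r of 0.9, and for PTHLH 4 did.

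The nearest genes to PTHLH were TTC14 (r = 0.931), the Notch ligand gene JAG1 (r = 0.923) and the mitochondrial carrier gene SLC25A21 (r = 0.92), all lowest in cornea 3. The nearest to ADM were the cell division genes CENPF (r = 0.914) and CENPI (r = 0.847) and the gene CDCA7L (r = 0.83), all lowest in cornea 2, the clone in which the cell cycle list was lowest. The part of the cell cycle in the ADM values was not tested. The nearest to NUCB2 were the transcription factor gene TFAP2B (r = 0.924), the calcium sensor gene VSNL1 (r = 0.92) and IYD, an iodide-salvaging enzyme (r = 0.91). The nearest to NRN1 were PHGDH, which starts serine synthesis (r = 0.925), PCOLCE2 (r = 0.909) and AZIN1 (r = 0.905).

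**Figure D5:**
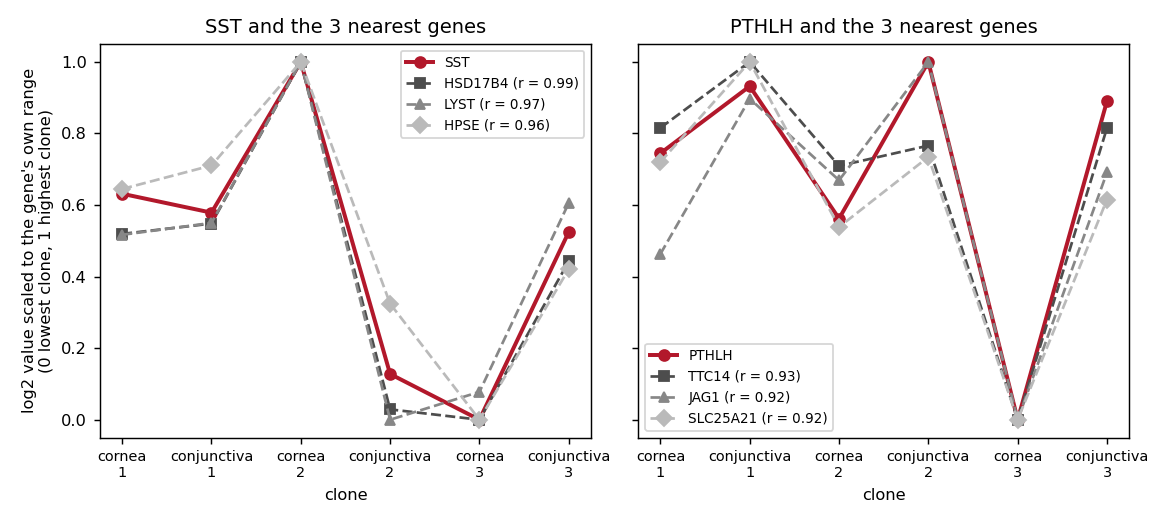
Log2 value scaled to each gene's own range, from 0 in its lowest to 1 in its highest clone (vertical axis), in each clone (horizontal axis), for SST (left) and PTHLH (right) in red and their 3 nearest genes in grey. SST and its nearest genes peak in cornea 2 and are low in conjunctiva 2 and cornea 3, and PTHLH and its nearest genes are lowest in cornea 3.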

How the data were processed

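Values were the authors' log2 intensities from RMA, named in the submitters' processing notes, as deposited. This method corrects background, gives all arrays the same distribution and summarises each probe set, and it hides any change in total RNA. Its version was not given in the sources used here. The deposited run files gave other settings, of which the fluidics station was used. Leaving out 124 controls gave 23999 probe sets, all of which were tested. Of these 10069 had 1 symbol in the annotation table, 198 several and 13732 none. By gene ID, 9961 of the single-symbol ones were found in a RefSeq table of Sscrofa11.1, and 0 symbols changed. Coordinates and sequences are not given, as the files tie no build to a probe set.

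The contrast, conjunctiva minus cornea, was fitted in limma 3.58.1 (R 4.3.3) by lmFit and eBayes. Its two-sided p-values were adjusted by the Benjamini-Hochberg method across the whole table. The fit was tested on simulated data. Descriptions used Python 3.11.15. Precision is limited by there being 6 arrays. The members and the gene lists were chosen with earlier results of these data known. The rule for named genes took all receptors and relatives, up to 4 genes of each other list by smallest p, and the 3 genes nearest to each member. DSP, CDH1, CDH3, ITGA6, EGFR and FOLR1 fall outside it and were named after their values were seen. The same holds for PCSK1, PCSK2, EGR1, ATF3, FOS, DUSP1 and RLN2.

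The clone numbers are shared between the tissues, and deviations from the tissue means correlated at r = 0.354, 0.169 and 0.349 for numbers 1, 2 and 3 across probe sets, so the number was also fitted as a block. As 2 animals are named, at least some of the 3 clones of each tissue share an animal. Alternatives were leaving out each clone, median centring, the station as a block, trend and robust options, a filter on dim probe sets and other choices of probe set. Values within each station were an alternative chosen after seeing the data.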

Additional observations from a re-analysis of the deposited data

How the results depend on the processing

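The count of probe sets past the limma threshold was 0 in every alternative, with the clone number as a replicate block too, except with the trend and robust options, where it was 2. Leaving out each clone gave 0 to 0 for all probe sets and 0 to 0 for the listed genes. For the listed genes the count was 0 in all 13 alternatives. The clone number block left each tissue difference as it was and changed no call, and it moved the counts at an unadjusted p as given above. Leaving out each clone gave tissue differences of -3.3 to 0.77 for SST, 1.18 to 2.71 for PTHLH, 0.20 to 0.66 for ADM, 0.41 to 0.59 for NUCB2 and -1.46 to -0.95 for NRN1. The sign of SST turned without cornea 2 (0.77), without conjunctiva 2 (0.06) and within station 2 (0.64). Ranges over the clones ran from 5.14 to 8.13, 1.8 to 4.11, 0.69 to 1.29, 0.58 to 0.78 and 1.41 to 1.93 in the same order of genes. Within a station only 3 clones enter. There the range was 4.1 for SST (station 1), 1.05 for PTHLH (station 1), 0.38 and 0.67 for ADM, 0.62 and 0.41 for NUCB2 (stations 1 and 2) and 1.37 for NRN1 (station 2), and the difference was 0.83 for PTHLH (station 1) and 0.36 for NUCB2 (station 2). With the probe set of the largest range, the NRN1 difference was -0.38.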

Other observations

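Another secreted peptide gene divided by clone number rather than by tissue. RLN2, the gene of the hormone relaxin, was at 5.63, 3.75 and 5.80 in corneal clones 1, 2 and 3 and at 5.60, 3.47 and 5.75 in conjunctival clones 1, 2 and 3. The clones numbered 2 of both tissues were low, at values under the array medians, and the other 4 high. Of its sum of squares 99.3% lay between clone numbers and 0.36% between tissues. The means over all genes were 51.4% and 16.7%. RLN2 was named after its values had been seen.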
